A study of Mus musculus with 8 samples.

Results

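Genes of sterol synthesis and of its control by sterol regulatory element-binding proteins (SREBPs), 8 of the 17191 genes in the deposited table, were followed in mouse hearts under pressure overload. They were Srebf1, Srebf2, Insig1, Hmgcs1, Idi1, Fdft1, Sqle and Scd1, and were chosen by gene symbol. The 4 mutant libraries came from mice with the STAT3 S727A change, which replaces a serine phosphorylation site of the transcription factor STAT3 by alanine, and the 4 control libraries came from wild-type (WT) mice. All 8 libraries were of hearts after 4 weeks of TAC (transverse aortic constriction, surgical narrowing of the aortic arch, against which the left ventricle then has to pump). No unoperated heart is analysed here, so every value below is a level under TAC and none measures the response to it. The labels give whole heart as the tissue and a single batch, and state neither the age nor the sex of the animals, nor which cells carry the mutation. They do not say that each library is a separate animal, so the p-values measure the spread between libraries, which may be technical.

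Cells make cholesterol from acetyl-CoA through the mevalonate pathway. When sterols in the endoplasmic reticulum run low, the escort protein SCAP carries SREBPs to the Golgi, where the S1P and S2P proteases release the active transcription factor. When sterols are plentiful, INSIG proteins hold SCAP and the SREBPs back. SREBP-2, from Srebf2, mainly drives genes of cholesterol synthesis and uptake, and SREBP-1, from Srebf1, mainly drives genes of fatty acid synthesis. SREBP activity is set largely by this cleavage, which RNA levels do not measure directly; the levels of target genes are a readout of it.

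The libraries held 10577619 to 13305124 counts each. All 8 heart myocyte markers examined, such as Myh6 and Tnnt2, were detected in every library, and their summed level was 79580 to 114700 CPM (counts scaled to a common library size), as the label of heart implies. Libraries S727A 4 and WT 4 held 9 and 6 reads of Y-linked genes, against 1940 to 2225 in each of the others. WT 1 and WT 4 held 200.6 and 84.97 CPM of airway and lung epithelium transcripts in sum, against 0.2382 to 2.854 CPM in the other 6. WT 2 and WT 4 had the highest summed adipocyte markers, given with Scd1.

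The promoter windows of Hmgcs1, Insig1 and Srebf2 are shown because SREBPs act on such windows together with the general factor NF-Y: all 3 are genes that SREBPs are known to drive, and their RNA levels are described next. Each is the 250 bases before the RefSeq start of the gene on build GRCm38.p6, plus strand, 5′ to 3′. Capitals mark the letters TCACNCCAC, one form of the sterol regulatory element, and CCAAT, the NF-Y box, on either strand (the reverse of the latter reads ATTGG). The window of Hmgcs1 is chr13:119690101-119690350, that of Insig1 chr5:28071162-28071411 and that of Srebf2 chr15:82147019-82147268.
Hmgcs1: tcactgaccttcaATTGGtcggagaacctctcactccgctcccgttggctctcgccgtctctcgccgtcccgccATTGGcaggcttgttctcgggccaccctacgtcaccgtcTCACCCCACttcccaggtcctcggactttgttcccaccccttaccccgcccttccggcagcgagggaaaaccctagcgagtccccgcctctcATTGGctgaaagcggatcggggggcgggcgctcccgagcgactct
Insig1: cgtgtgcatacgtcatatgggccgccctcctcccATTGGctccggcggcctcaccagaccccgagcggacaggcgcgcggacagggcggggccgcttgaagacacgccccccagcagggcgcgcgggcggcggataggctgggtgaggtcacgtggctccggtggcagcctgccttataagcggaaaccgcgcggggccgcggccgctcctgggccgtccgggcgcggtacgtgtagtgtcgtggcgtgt
Srebf2: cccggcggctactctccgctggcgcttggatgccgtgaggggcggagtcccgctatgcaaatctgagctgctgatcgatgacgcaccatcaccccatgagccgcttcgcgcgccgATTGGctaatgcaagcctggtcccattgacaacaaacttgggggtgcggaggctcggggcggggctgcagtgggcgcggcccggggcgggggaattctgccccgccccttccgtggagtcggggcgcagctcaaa
The Hmgcs1 window held the TCACNCCAC letters once, beginning 137 bases before the start, with NF-Y boxes at 237, 176 and 45 bases. Insig1 held an NF-Y box at 216 bases and Srebf2 one at 135 bases. Of all 32851 promoter windows of this length, 1.05% held TCACNCCAC and 33.8% held CCAAT, so the NF-Y box alone is a common match. TCACNCCAC was in none of the other 6 windows matched, those of Insig1, Srebf2, Idi1 and the 3 listed starts of Srebf1. A match of letters describes the sequence and is not a measured binding site.

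No sterol or SREBP gene passed the test between S727A and WT hearts, and the 95% intervals were narrow for Srebf2 and Hmgcs1 and wide for Sqle and Scd1. All 8 genes passed the filter on low counts, and 0 of 8 were called different at an adjusted p under 0.05 (edgeR quasi-likelihood test, Benjamini-Hochberg over 12998 genes), where 0.146% of all tested genes were called (0.0462% as higher in S727A and 0.1% as lower). DESeq2 and limma voom also called 0 of the 8. At an unadjusted p under 0.05 there was 1 gene, Scd1, where 17.8% of all tested genes had one. None of the 8 had every S727A library on one side of every WT library, which 8.43% of tested genes had (4.07% with S727A above WT and 4.36% with it below). Their median log2 fold change (S727A over WT) was -0.06, with 2 above 0 and 6 below, and the median over all tested genes was -0.0034. In the authors' deposited table the q-values of the 8 genes ran from 0.185 for Scd1 to 0.998.

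**Figure D1:**
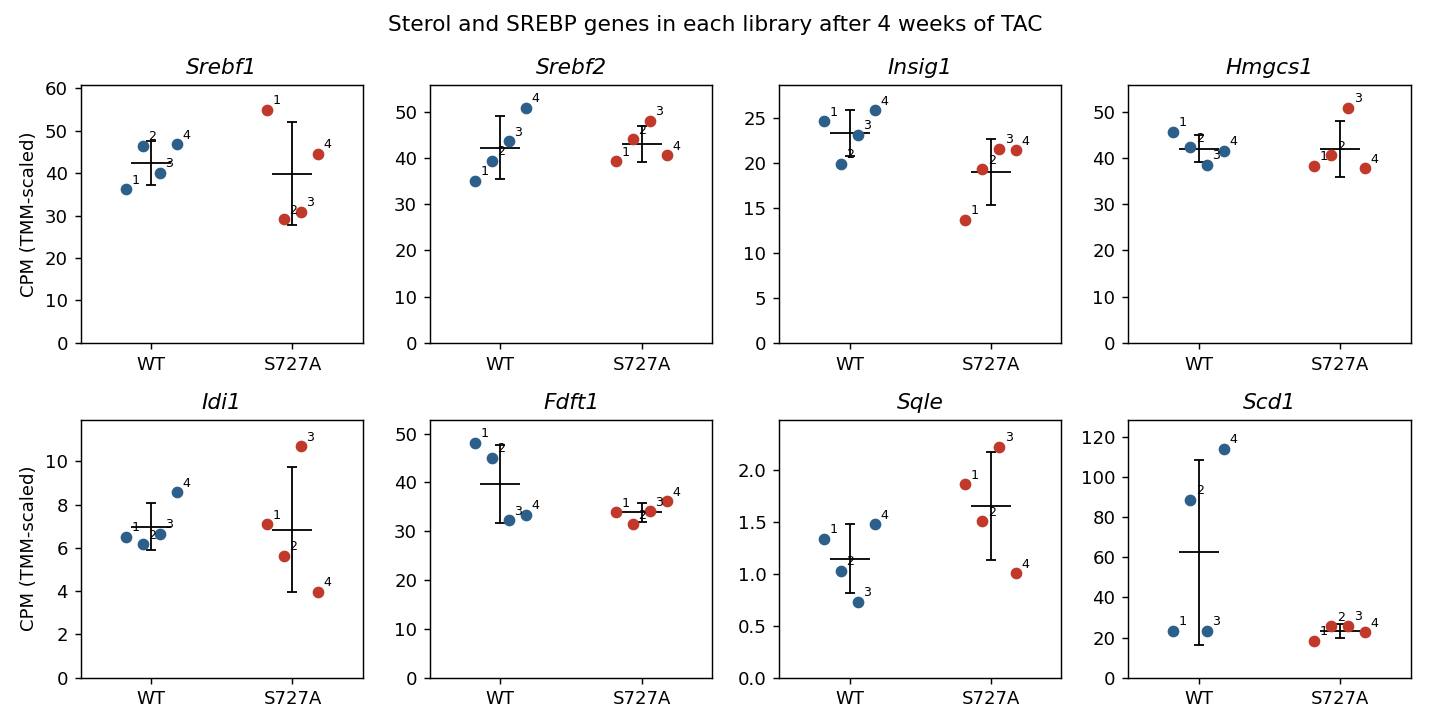
CPM of each gene in the 4 WT (blue) and 4 S727A (red) libraries, with the library number beside each point; bars give the mean and SD, and every axis starts at 0. Points of the genotypes overlap in all 8 panels, and in Scd1 only WT 2 and WT 4 stand above the other 6 libraries.

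Among the regulators, Srebf1 (gene 20787, chromosome 11, 60199084 to 60224186, minus strand) was at 54.94, 29.22, 30.94 and 44.59 CPM in S727A 1 to 4 and at 36.23, 46.44, 40.11 and 46.81 CPM in WT 1 to 4. The S727A libraries held both the highest and the lowest values, so the WT range lay inside the S727A range. The log2 fold change was -0.09 ± 0.19 (SE; 95% interval -0.52 to 0.34, edgeR adjusted p = 0.855). Without S727A 1 it was -0.28 (edgeR adjusted p = 0.461) and without S727A 2 it was 0.04, so its sign changed with the library left out. RefSeq lists 3 promoter windows for Srebf1, and the counts per gene join the transcripts from all of them.

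Srebf2 (gene 20788, chromosome 15, 82147269 to 82205379, plus strand) was at 39.3, 44.07, 48.07 and 40.63 CPM in S727A 1 to 4 and at 35.08, 39.42, 43.62 and 50.86 CPM in WT 1 to 4. All S727A values lay within the WT range. Its log2 fold change was 0.02 ± 0.12 (SE; 95% interval -0.23 to 0.28, edgeR adjusted p = 0.941), which bounds the ratio of S727A to WT between 0.85 and 1.22.

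Insig1, which encodes the retention protein and is itself a strong SREBP target (gene 231070, chromosome 5, 28071412 to 28078662, plus strand), was at 13.7, 19.3, 21.58 and 21.44 CPM in S727A 1 to 4 and at 24.63, 19.94, 23.13 and 25.86 CPM in WT 1 to 4. WT 1, 3 and 4 lay above every S727A library, and WT 2 lay among the S727A values. Means were 19.0 ± 3.69 CPM (S727A) and 23.4 ± 2.56 CPM (WT; mean ± SD, n = 4 each). The log2 fold change of -0.30 ± 0.15 did not pass (SE; 95% interval -0.62 to 0.02, edgeR adjusted p = 0.307), and it was -0.17 without S727A 1, the lowest library. Its paralog Insig2 was the more abundant form per length: the ratio of Insig1 to Insig2 in deposited FPKM (fragments scaled to gene length and sequencing depth) ran from 0.2755 to 0.3971 in S727A and from 0.3768 to 0.5144 in WT.

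The pathway enzymes come next, in the order of the reactions. Hmgcs1 (gene 208715, chromosome 13, 119690351 to 119708260, plus strand), the cytosolic HMG-CoA synthase at the entry of the mevalonate pathway, was at 38.37, 40.66, 50.92 and 37.75 CPM in S727A 1 to 4 and at 45.71, 42.32, 38.57 and 41.59 CPM in WT 1 to 4. S727A 3 was the highest library and S727A 4 the lowest. Of the 8 genes it had the smallest difference: means were 41.9 ± 6.13 CPM (S727A) and 42.0 ± 2.93 CPM (WT; mean ± SD, n = 4 each), with a log2 difference of -0.0044 ± 0.11 (SE; adjusted p = 0.988, edgeR). The 95% interval of that fold change, -0.24 to 0.23, leaves ratios from 0.846 to 1.175.

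Idi1 (gene 319554, chromosome 13, 8885606 to 8892396, plus strand) encodes isopentenyl-diphosphate isomerase, which makes the reactive isomer of the isoprene unit from which sterols are built. It was at 7.082, 5.638, 10.7 and 3.962 CPM in S727A 1 to 4 and at 6.517, 6.179, 6.66 and 8.567 CPM in WT 1 to 4. As for Srebf1, the S727A libraries spanned the whole WT range and beyond it. The fitted log2 fold change was -0.04 ± 0.26 (SE; 95% interval -0.61 to 0.54, edgeR adjusted p = 0.958). It was -0.33 without S727A 3 and 0.15 without S727A 4, so it has no stable sign. Its estimated counts, 50.6 to 120 per library, were not whole in most libraries, so how reads were shared between Idi1 and other genes is uncertain.

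Fdft1 (gene 14137, chromosome 14, 63145150 to 63181687, minus strand) encodes squalene synthase, the first enzyme committed to sterols. It was at 33.85, 31.44, 34.16 and 36.12 CPM in S727A 1 to 4 and at 48.11, 45.03, 32.28 and 33.41 CPM in WT 1 to 4. WT 1 and WT 2 stood above the rest, and WT 3 and WT 4 lay among the S727A libraries. The log2 fold change of -0.23 ± 0.13 did not pass (SE; 95% interval -0.51 to 0.06, edgeR adjusted p = 0.392). It was -0.12 without WT 1.

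Sqle (gene 20775, chromosome 15, 59315092 to 59331193, plus strand), the squalene epoxidase of the next step, was the least abundant, with 10 to 25 counts per library. Its level was 1.868, 1.509, 2.229 and 1.01 CPM in S727A 1 to 4 and 1.342, 1.03, 0.7319 and 1.48 CPM in WT 1 to 4. S727A 1 to 3 lay above every WT library and S727A 4 below WT 1, 2 and 4. The log2 fold change of 0.53 ± 0.33 did not pass (SE; 95% interval -0.20 to 1.25, edgeR adjusted p = 0.427). At so few counts a ratio anywhere between 0.87 and 2.38 was not excluded by its 95% interval, so neither a difference nor equality was detectable at this depth. With 1 added to each FPKM before taking log2, which shrinks low values, the difference was 0.17.

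Scd1 (gene 20249, chromosome 19, 44394450 to 44407709, minus strand), a stearoyl-CoA desaturase that makes monounsaturated fatty acids and is a target of SREBP-1, had the largest fold change of the 8. It was at 18.44, 25.65, 25.95 and 22.68 CPM in S727A 1 to 4 and at 23.48, 88.76, 23.35 and 114.2 CPM in WT 1 to 4. WT 2 and WT 4 were far above the other 6 libraries, while WT 1 and WT 3 lay within the S727A range. The log2 fold change was -1.43 ± 0.58 (SE; 95% interval -2.81 to -0.05, unadjusted p = 0.044 and adjusted p = 0.266 in edgeR). Without WT 4 it was -0.96, and without both WT 2 and WT 4, an alternative chosen after seeing the data, it was -0.01 (edgeR adjusted p = 0.986). As WT 2 and WT 4 were the highest in Scd1, leaving them out had to make the difference smaller.

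The same libraries held the most RNA of adipocyte genes. The summed level of 10 adipocyte markers was 123.1 CPM in WT 2 and 172.4 CPM in WT 4, against 56.54 to 74.16 CPM in S727A and 64.59 and 65.14 CPM in WT 1 and WT 3. Adipoq, the adiponectin gene, was at 5.618 and 4.517 CPM in WT 2 and WT 4 and at most 0.7004 CPM elsewhere. Plin1, which coats the fat cell's lipid droplet, was at 3.745 and 3.349 CPM against at most 0.6709 CPM. The mean of all 10 markers was higher in WT, and none was called (4 of them passed the low count filter). The brown fat gene Ucp1 was listed at 0 in every library but WT 2 (1 count) and WT 4 (58 counts). Lep, the leptin gene, was at 0 in S727A 1, 3 and 4 and WT 1 and 3. It had 1 count each in S727A 2 and WT 4 and 14 in WT 2. Lipe and Pparg did not set both libraries apart. They were at 41.85 and 13.76 CPM in WT 2 and 65.66 and 18.15 CPM in WT 4, against 35.58 to 54.38 and 9.71 to 19.14 CPM in S727A. Without Lipe and Pparg the sum was 67.5 CPM in WT 2 and 88.63 CPM in WT 4, against 3.176 to 18.76 CPM elsewhere. The part of these cells in the Scd1 difference was not tested. In whole heart, fewer cells of a type and less RNA per cell cannot be told apart.

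**Figure D2:**
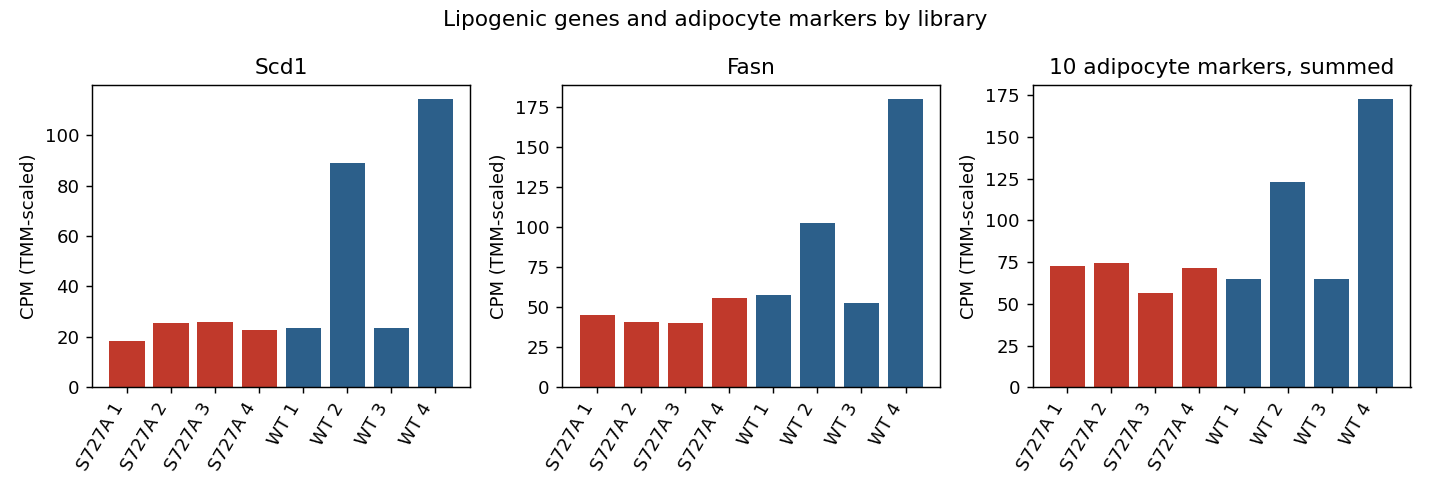
CPM of Scd1, of Fasn and of the sum of 10 adipocyte markers in each library (S727A red, WT blue; bars from 0). In all 3 panels WT 4 is highest and WT 2 is second, with 114.2 and 88.76 CPM of Scd1.

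Other desaturase genes were measured in the same libraries. Scd2, the widely expressed form, was high in WT 2 as well but not in WT 4. It was at 39.23 to 44.83 CPM in S727A and at 32.3 to 54.96 CPM in WT (log2 fold change 0.04 ± 0.14, SE, edgeR adjusted p = 0.92). Scd4, a form found mainly in heart, was at 65.14, 25.65, 20.24 and 35.11 CPM in S727A 1 to 4 and at 23.1, 2.528, 21.3 and 21.42 CPM in WT 1 to 4, so WT 2 was low in Scd4 where it was high in Scd1. Its log2 fold change of 1.09 ± 0.63 did not pass (SE, edgeR adjusted p = 0.413). Scd genes are close copies and the estimated counts of Scd1 were not whole in some libraries, so the division of reads between them is uncertain.

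Levels of different genes can be set against each other per length, in the deposited FPKM. In WT the order was Scd1 (13.1 ± 9.77), Hmgcs1 (12.1 ± 0.653), Fdft1 (10.9 ± 2.04), Srebf1 (10.1 ± 1.28), Insig1 (9.095 ± 1.03), Srebf2 (9.058 ± 1.51), Idi1 (2.495 ± 0.409) and Sqle (0.4275 ± 0.123; FPKM, mean ± SD, n = 4). Each of the first 6 overlapped its neighbour in this order, and the steps down to Idi1 and from Idi1 to Sqle exceeded the spread. In S727A the order began with Hmgcs1 (11.9 ± 1.76), Srebf1 (9.357 ± 2.81), Fdft1 (9.227 ± 0.646), Srebf2 (9.065 ± 0.855) and Insig1 (7.285 ± 1.5). Scd1 followed at 4.812 ± 0.738 FPKM, then Idi1 (2.41 ± 1.02) and Sqle (0.61 ± 0.191). Here every neighbour overlapped the next, down to Idi1, whose lowest library (1.41 FPKM) lay above the highest of Sqle (0.83 FPKM). Srebf1 and Srebf2 were thus present at like levels: their FPKM ratio ran from 0.7165 to 1.556 in S727A and from 1.03 to 1.291 in WT.

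**Figure D3:**
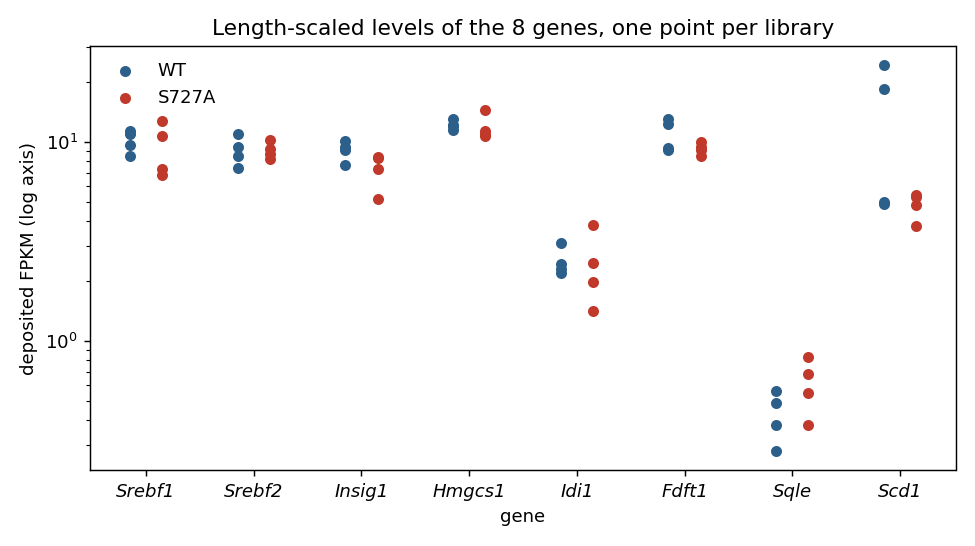
Deposited FPKM of each of the 8 genes on a log axis, 1 point per library (WT blue, S727A red). Srebf1, Srebf2, Insig1, Hmgcs1 and Fdft1 lie close together, Scd1 is split in WT, Idi1 is lower, and Sqle is lowest at 0.28 to 0.83 FPKM.

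Of 18 other sterol synthesis enzymes, all tested, 0 were called in either direction by edgeR and 1 had an unadjusted p under 0.05. Over all tested genes these shares were 0.146% and 17.8%, so 0 calls in a list this short says little about it. The median log2 fold change of these enzymes was 0.09, 13 lying above 0 and 5 below, against -0.0034 over all tested genes. The largest fold change was that of Hsd17b7, a keto-reductase of sterol demethylation, at 38.8 ± 6.84 CPM (S727A) and 29.9 ± 4.67 CPM (WT; mean ± SD, n = 4 each), with a log2 difference of 0.38 ± 0.14 (SE; adjusted p = 0.199, edgeR). Sc5d, a late-step desaturase, had a log2 fold change of -0.25 ± 0.12, and Lbr, the lamin B receptor that is also a sterol reductase, one of 0.19 ± 0.10 (SE, edgeR adjusted p of 0.294 and 0.365).

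Among 12 genes of SREBP processing and turnover, none passed: edgeR gave 0 calls and 0 unadjusted p under 0.05, beside 0.146% and 17.8% of all tested genes. The median log2 fold change was 0.06. Scap, the escort, was at 58.8 ± 6.0 CPM (S727A) and 50.7 ± 5.54 CPM (WT; mean ± SD, n = 4 each), a log2 difference of 0.21 ± 0.10 (SE; adjusted p = 0.313, edgeR). Rnf139, which encodes a ubiquitin ligase of the endoplasmic reticulum, had a log2 fold change of 0.14 ± 0.09 (SE). Fbxw7, whose product marks nuclear SREBPs for degradation, had one of -0.13 ± 0.13 (SE). Adjusted p in edgeR was 0.456 and 0.635.

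Sterol uptake, transport and storage genes gave 0 calls among 13 tested (1 at an unadjusted p under 0.05 in edgeR), beside 0.146% and 17.8% of all tested genes. Their median log2 fold change was 0.06. Tmem97, a sterol-responsive gene of the endoplasmic reticulum, was at 8.95, 8.496, 8.74 and 9.322 CPM in S727A 1 to 4 and at 6.421, 5.337, 7.831 and 6.698 CPM in WT 1 to 4. Its groups did not overlap, with S727A above WT, as in 4.07% of tested genes (8.43% in either direction). But its log2 fold change of 0.43 ± 0.15 did not pass (SE, edgeR adjusted p = 0.173). The lysosomal sterol exporters Npc1 and Npc2 had log2 fold changes of -0.42 ± 0.20 and 0.14 ± 0.09 and the esterifying enzyme Soat1 one of 0.28 ± 0.17 (SE, edgeR adjusted p of 0.314, 0.454 and 0.411). Npc1 passed as lower without S727A 4 (log2 fold change -0.67, edgeR adjusted p = 0.0251), a fit that called 617 genes against 19 in the main fit. S727A 4 was at 85.61 CPM of Npc1, against 41.32, 58.44 and 48.07 CPM in S727A 1 to 3. Leaving it out therefore had to lower the fold change.

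Of the fatty acid genes that SREBPs also drive, 0 of 19 were called by edgeR, beside 0.146% of all tested genes. In this list 14 had a log2 fold change below 0 and 5 above, with a median of -0.25. An unadjusted p under 0.05 was found for 5, all below 0. Of all 12998 tested genes 17.8% had one in either direction and 1142 genes had one below 0. Lpin1, a phosphatidate phosphatase, was at 167.4, 184.9, 195.1 and 222.1 CPM in S727A 1 to 4 and at 275.1, 262.2, 256.3 and 296.7 CPM in WT 1 to 4. Those groups did not overlap, and the log2 fold change was -0.50 ± 0.10 (SE, edgeR adjusted p = 0.0863, DESeq2 adjusted p = 0.00053). Lpin1 also passed in edgeR without S727A 4, without WT 3 and without S727A 4 and WT 4 together (adjusted p of 0.0128, 0.0343 and 0.03). Those edgeR fits called 617, 275 and 242 genes in all and DESeq2 called 534, against 19 in the main fit. In the other 16 of 20 alternatives Lpin1 was not called. Acaca, acetyl-CoA carboxylase 1, was at 19.35 to 21.25 CPM in S727A and at 24.92, 30.62, 25.62 and 40.5 CPM in WT 1 to 4, also without overlap. Its log2 fold change was -0.58 ± 0.15 (SE, edgeR adjusted p = 0.118, DESeq2 adjusted p = 0.0194), and -0.32 without WT 2 and WT 4. Those libraries were the highest in Acaca, so leaving them out had to make the difference smaller. Acaca passed in edgeR without WT 3 (adjusted p = 0.047) and was not called in 18 of 20 alternatives. Acacb, the mitochondrial form that limits fatty acid oxidation, had a log2 difference of -0.31 ± 0.10 (SE; adjusted p = 0.171, edgeR). Acacb passed as lower without S727A 4 (log2 fold change -0.41, edgeR adjusted p = 0.027). S727A 4 was its highest S727A library, at 507.5 CPM, so leaving it out had to lower the fold change.

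Fasn, the fatty acid synthase, was highest in the same libraries as Scd1. It was at 44.98, 40.97, 40.4 and 55.39 CPM in S727A 1 to 4 and at 57.31, 102.4, 52.62 and 179.5 CPM in WT 1 to 4. The log2 fold change of -1.11 ± 0.40 did not pass (SE, edgeR adjusted p = 0.224) and was -0.27 without WT 2 and WT 4, the libraries with most adipocyte RNA. WT 2 and WT 4 were also the 2 highest in Fasn, so leaving them out had to bring its value nearer 0. For Lpin1 the value without them was -0.46, close to that from all libraries. The part of fat cells in either value was not tested. Lpin1 and Acaca were the 2 of 19 genes in this list whose groups did not overlap, both with S727A below WT, beside 4.36% of tested genes (8.43% in either direction).

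Genes of the liver X receptors (LXRs), sterol-sensing nuclear receptors that raise Srebf1 transcription and sterol efflux, held the single call. Mlxipl, which encodes the glucose-responsive factor ChREBP that acts beside SREBP-1 on lipogenic genes, fell in S727A hearts to 23.6 ± 3.98 CPM, where WT hearts had 46.6 ± 4.99 CPM (SD, n = 4). It was at 17.9, 23.74, 25.77 and 26.8 CPM in S727A 1 to 4 and at 49.74, 42.88, 41.79 and 51.87 CPM in WT 1 to 4, with a log2 difference of -0.98 ± 0.13 (SE; adjusted p = 0.0234, edgeR). It was -0.96 without WT 2 and WT 4, with an adjusted p of 0.119 in that smaller edgeR fit. Leaving out S727A 1, 2 or 3 or WT 1 or 4 ended the call, with edgeR adjusted p of 0.0618, 0.0567, 0.122, 0.0799 and 0.0679.

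The receptor gene Nr1h3 (LXR alpha) was at 14.2 ± 1.27 CPM (S727A) and 19.0 ± 1.06 CPM (WT; mean ± SD, n = 4 each), without overlap, and its log2 fold change of -0.42 ± 0.11 did not pass in edgeR (SE, adjusted p = 0.121) and passed in DESeq2 (adjusted p = 0.0401). Pltp, the phospholipid transfer protein and an LXR target, had a log2 fold change of -0.64 ± 0.14, and the partner receptor Rxra one of -0.22 ± 0.10 (SE, edgeR adjusted p of 0.0992 and 0.26). Pltp passed in DESeq2 (adjusted p = 0.00432), and in edgeR without S727A 4 and without S727A 4 and WT 4 together (adjusted p of 0.0208 and 0.0465). DESeq2 called 534 genes in all and those edgeR fits 617 and 242, against 19 in the main fit. Of 20 alternatives, 17 did not call Pltp and 19 did not call Nr1h3. Of the 11 genes of this list 1 was above 0 and 10 below, with a median of -0.22. An unadjusted p under 0.05 was found for 4, all below 0. Over all 12998 tested genes 17.8% had one in either direction and 1142 genes had one below 0. Groups of 3 of the 11, Mlxipl, Pltp and Nr1h3, did not overlap, each with S727A below WT, as in 4.36% of tested genes. Macrophages also express Nr1h3 and Pltp; all 8 macrophage markers had a log2 fold change below 0, none called, and their sum was 310 to 414.4 CPM in S727A against 413.3 to 773.5 CPM in WT. The part of these cells in the LXR values was not tested.

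**Figure D4:**
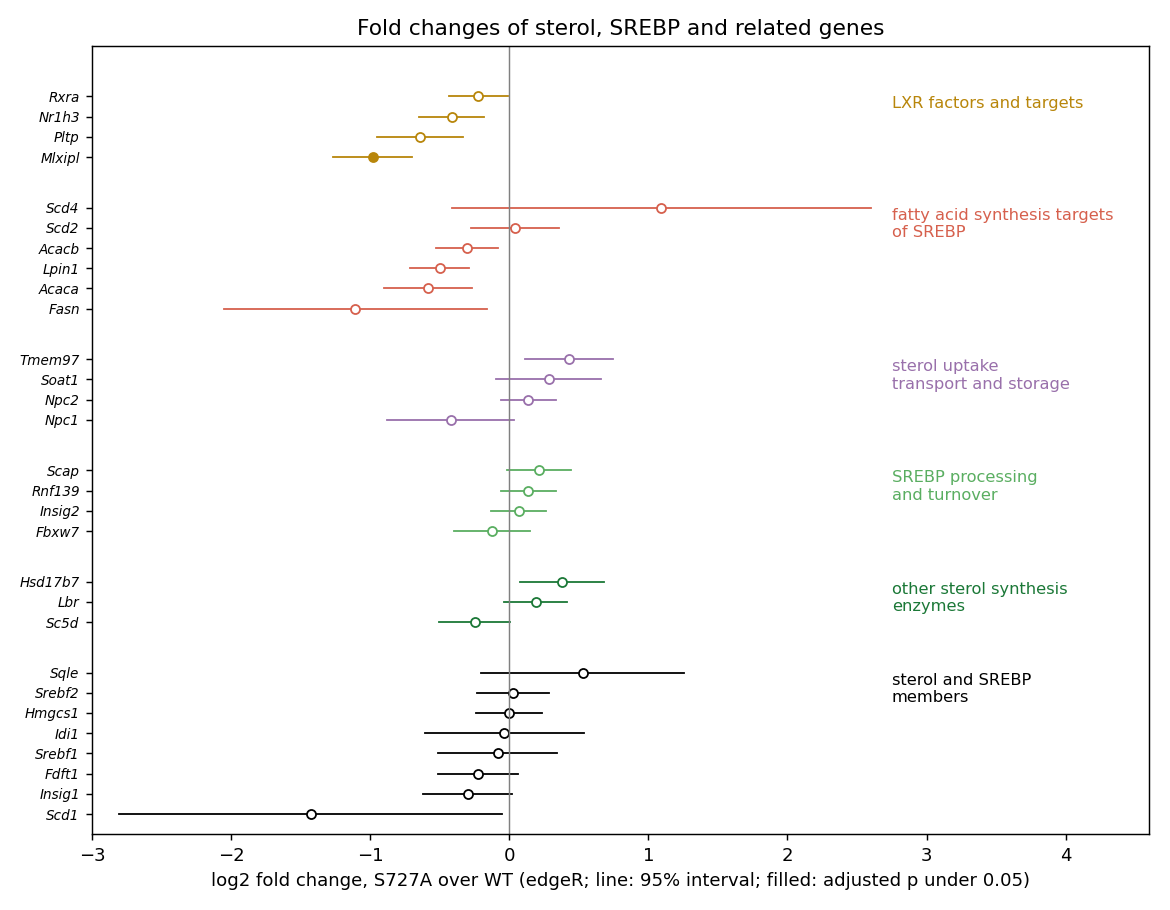
Log2 fold change (S727A over WT, edgeR) with its 95% interval for the 8 sterol and SREBP genes and for the genes named here from 5 related lists; a filled point marks an adjusted p under 0.05. Mlxipl is the single filled point, the intervals of most sterol genes cross 0, and most fatty acid and LXR points lie left of 0. Apart from Scd2, Scd4 and Insig2, the list genes shown were taken from those called or of smallest p in these data. Where their points lie therefore does not describe the whole lists.

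The list medians by library show how far single libraries carry these values. For each gene the deviation of log2 CPM from its mean over the 8 libraries was taken, and the median over a list is given. Over 22 sterol synthesis enzymes (18 with Hmgcs1, Idi1, Fdft1 and Sqle) S727A 3 had the highest median, 0.14, and was the highest library for 9 genes and the lowest for 0. WT 3 had the lowest, -0.13, and was the lowest library for 7 genes and the highest for 0. The other 6 libraries lay between -0.06 and 0.04, with the genotypes mixed. For the fatty acid genes all S727A medians, -0.22 to -0.03, lay below all WT medians, 0.04 to 0.19. For the LXR genes they also lay below, -0.28 to 0.02 against 0.08 to 0.22. These separations are given as descriptions, without a test.

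**Figure D5:**
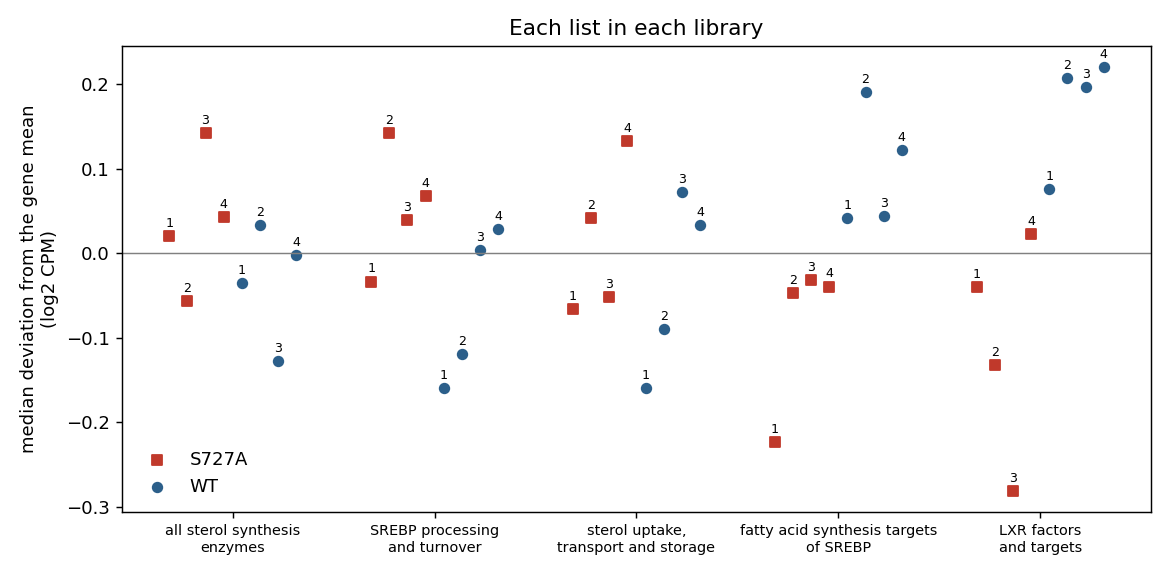
Median over each list of the deviation of log2 CPM from the gene's mean, for each library (S727A squares, WT circles, library number above). The genotypes mix in the 3 sterol lists and separate in the fatty acid and LXR lists, where every S727A point is below every WT point.

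Genes whose log2 CPM over the 8 libraries was most like that of a member were looked up for Hmgcs1, Srebf1 and Scd1 among 11947 other genes, as a description with no p. For Hmgcs1 they were Ppp1r14a, Ube2k and Orc6 (Pearson correlation 0.975, 0.949 and 0.946), for Srebf1 Vwf, Hsf4 and B4gat1 (0.938, 0.928 and 0.927), and for Scd1 Cd248, Tbx3 and Atp6v0a2 (0.964, 0.95 and 0.948). None is in the sterol or fatty acid lists. The points share libraries and depth, and the Spearman correlations of the genes most like Scd1 were lower, 0.595 to 0.69.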

How the data were processed

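Polyadenylated RNA of whole heart was sequenced in 8 libraries. Per the labels' protocols RNA came from Trizol extraction and stranded mRNA libraries were made for DNBSEQ. Tools named in the submitters' processing notes are HISAT2, Bowtie2 and FastQC, with build GRCm38.p6, and how reads were counted is not stated there. Per the file headers the deposited table holds an estimated count per gene and library and FPKM made by the authors, with their group means of both. The authors' log2 ratio, p-value and q-value were deposited too, and only q-values are quoted. Besides those of the 8 genes, the authors' q-values were 0.000654 for Lpin1, 0.0259 for Acaca, 0.00579 for Pltp and 3.45e-08 for Mlxipl. They were 0.0532 for Nr1h3, 0.1005 for Acacb and 0.1455 for Fasn.

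Estimated counts (6.06% to 7.62% not whole, tolerance 1e-06) were rounded. Genes were kept by edgeR filterByExpr at a minimum count of 10 and a total of 15, leaving 12998 genes. Genotype, the only term, was tested two-sided with edgeR 4.0.16 (R 4.3.3; TMM, glmQLFit in legacy mode with robust fitting, glmQLFTest), with Benjamini-Hochberg adjustment over all tested genes. CPM were scaled by TMM; their log2 values add a prior count of 2. Standard errors come from the F statistic, and 95% intervals from the t distribution on its moderated degrees of freedom. On simulated data made from these means, depths and dispersions, 100% of genes changed by -2 and 74% of those changed by -1 (log2) were recovered. For changes of 2 and 1 the shares were 100% and 92%. Each gene was drawn independently there, without shifts shared by the genes of a library. These shares may therefore be too high for the real libraries. All library pairs differed (chi-square per degree of freedom 9.13 to 39). Gene coordinates and promoters are from RefSeq on GRCm38.p6; promoter windows matched 5 of the 8 genes. Strands are from GENCODE M21.

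The 8 genes and all lists were chosen with earlier results of these data known, so lists are described by counts and medians, with no set test. Named were the 8 genes and, from each list, up to 4 called genes or those of smallest p up to 4; Scd2, Scd4 and Insig2 were added after their values were seen. Alternatives were RLE, 2 other filters, DESeq2 1.42.0, limma 3.58.1 voom, the newer edgeR mode, limma trend on log2 FPKM with pseudocounts 1 and 0.1, the replicate number as a block, and fits leaving out libraries. The fit without WT 2 and WT 4 was added after seeing the data. Some genes of the lists are counted in them but not reported here by name.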

Additional observations from a re-analysis of the deposited data

Results flagged for a closer look

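Acacb was at 507.5 CPM in S727A 4, against 385.3 to 395.5 CPM in S727A 1 to 3, the only library that stood far from the others of its group among 56 groups examined. Its gap was 0.917 of the group's range, above Dixon's critical value for 4 samples. Chance passes that value in about 1 of 20 groups. Scd2, Scd4 and Insig2, added after their values were seen, were not among the groups examined. Scd4 also had a library that stood apart, WT 2 at 2.528 CPM, against 21.3 to 23.1 CPM in WT 1, 3 and 4. S727A 4 is the S727A library almost without Y-linked reads. WT 4, the WT library like it, was at 514.8 CPM, within the range of WT 1 to 3, 479.6 to 551.9 CPM. The part of the lack of Y-linked reads in the value of S727A 4 was not tested.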

How the results depend on the processing

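None of the 8 sterol and SREBP genes was called under any of the 20 alternatives, and their median log2 fold change stayed between -0.17 and 0.02. Sqle, Insig1, Fdft1 and Scd1 kept their sign throughout. Values near 0 changed sign: Srebf1 to 0.0658 without WT 2 and WT 4; Hmgcs1 to 0.002 with no filter, 0.0377 without the 2 libraries lacking Y-linked reads and 0.0516 without WT 1 and WT 4; Idi1 to 0.27, 0.0848 and 0.049 without the Y-lacking pair, WT 1 and 4, and WT 2 and 4. Leaving out 1 library gave -0.28 to 0.0383 for Srebf1, -0.0551 to 0.13 for Srebf2, -0.11 to 0.0437 for Hmgcs1 and -0.33 to 0.15 for Idi1.

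The number of genes called, 19, was 534 in DESeq2, 6 in limma voom, 6 and 4 on FPKM with pseudocounts 1 and 0.1, 242 without the Y-lacking pair, 0 without WT 1 and 4, 4 without WT 2 and 4, and 0 to 617 with 1 library left out: 617 without S727A 4, 275 without WT 3, and 0 in edgeR without S727A 1, S727A 3 or WT 1. Those 3 fits gave 1762, 1704 and 1576 genes at an unadjusted p under 0.05, and the fit without WT 1 and 4 gave 1307. Of the fatty acid genes, 2 were called in DESeq2, 2 without the Y-lacking pair and 0 to 3 with 1 library left out; of the uptake genes 0 to 1. Of the LXR genes, 3 were called in DESeq2, 2 without the Y-lacking pair, 0 on FPKM with pseudocount 0.1, 0 without WT 1 and 4, 0 without WT 2 and 4, and 0 to 2 with 1 library left out. The causes were not tested.

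Same-numbered libraries did not deviate together (correlations -0.0518, -0.102, 0.0646 and 0.0707), and 2 of 8 libraries correlated best with their own number. With the replicate block 2 genes and 0 LXR genes were called, with Mlxipl at an edgeR adjusted p of 0.072. Counts of 10 to 25 limit Sqle.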
